A study of Mus musculus with 3 samples.

Results

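Sirt1 is a nuclear protein deacetylase that uses NAD+ as its cofactor and removes acetyl groups from histones, transcription factors and coregulators. Mature medullary thymic epithelial cells (mTECs) are the stromal cells that display self-antigens to developing T cells. Many of these antigens depend on the transcriptional regulator Aire. The mTEC compartment also holds epithelial cells that take on programmes of peripheral tissues, among them tuft cells, microfold cells and keratinised cells. The question of the comparison was what the deletion of Sirt1 in thymic epithelium does to the transcriptome of these cells, here described across functional classes of genes and not only tissue antigens.

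The comparison set the library titled as the epithelial Sirt1 knockout (Sirt1cKO) against the wild-type library (WT), with 1 library per genotype. WT mice carried the floxed Sirt1 alleles without Cre (Sirt1fl/fl), and Sirt1cKO mice carried the same floxed alleles with Foxn1-Cre, which is active in thymic epithelium. WT has no Cre, so an effect of Cre itself and the loss of Sirt1 cannot be told apart. Both groups were labelled strain C57b/6 and were 6 weeks old, typically with 3 mice pooled per sort. The sorted cells were EpCAM+, CD45-, Ly51low and high for MHC class II. Because each genotype is 1 pool, no replicate check, error or p-value exists, and every difference below describes these 2 libraries and not the genotypes. The third library of the series, from Aire-/- mice, enters only where the labels are in doubt.

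The labels conflict. The title and genotype of the Sirt1cKO library name the Sirt1 deletion, but its free-text description names the Aire knockout, and the description of the Aire-/- library names the Sirt1 deletion. Titles and genotypes were followed. With the labels exchanged, the median turned sign for 9 of the 64 gene lists and the difference for 104 of 573 genes examined. The exchanged values are given for Pth, Cyp26a1, the tuft cell genes, the taste receptors and the lists of the Sirt1 system. Of the other lists, the B cell markers turned from −0.09 to 0.31 and the fibroblast markers from −0.11 to 0.25. The costimulatory ligands turned from −0.07 to 0.11 and the sarcomere genes from −0.15 to 0.005. Genes named below that turned include Chga, Ccl17, Rela, Lcn2, Mki67, Plk2 and Sprr2d. The remaining list medians kept their sign, but sizes throughout rest on the titles. Expression of Sirt1 itself did not settle the matter. Its log2 intensity was 11.40 in WT and 11.27 in Sirt1cKO, a difference of −0.14, but probe positions were not checked against the deletion, so the value does not check the label. In the library labelled Aire-/- Sirt1 stood at 11.42. Aire stood at 11.97 in WT, 11.24 in Sirt1cKO and 11.55 in the library labelled Aire-/-, so it was lowest in the library titled Sirt1cKO, and its probe positions were not checked either.

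Probe sets with 1 gene symbol gave 19937 genes, of which 19102 were autosomal and form the comparison. The other genes were 739 on the X chromosome, 9 on the Y chromosome, and 87 that were mitochondrial or had no chromosome. A gene was called measured when the brighter of its 2 values reached the median of all probe-set values, 6.77 on the log2 scale. That held for 11768 autosomal genes, while 7334 did not reach it. Of the measured genes, 375 passed only through Sirt1cKO and 490 only through WT. Background was taken as the 95th percentile of the 1021 autosomal olfactory receptor genes, few of which are transcribed away from olfactory neurons. It was 6.34 in Sirt1cKO and 6.02 in WT. Where the dimmer value lay within background, the fold is given as "at least", against that percentile.

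The cells carried the epithelial markers of the sort in both libraries. Of 14 thymic epithelial markers, all 14 were measured, and their summed linear intensity was 66393 in WT and 54100 in Sirt1cKO. Epcam, the epithelial surface marker of the gate, stood at 11.01 and 10.91. Ptprc, which encodes the excluded CD45, stood at 7.77 and 7.66, above background in both, so its signal was not absent. Enpep, which encodes Ly51, stood at 7.95 and 7.75. The median linear intensity was 107.8 in WT and 111.2 in Sirt1cKO. The sex-linked genes differed: Y-linked Eif2s3y stood at 4.23, within background, in WT and at 8.92 in Sirt1cKO, while Xist stood at 12.17 and 11.46. The labels give no sex, so the sex make-up of the pools and the genotype cannot be told apart, and the description below is limited to autosomes.

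Most genes differed little. The correlation across the 11768 measured genes, which are not independent replicates, was 0.95. At least 2-fold lower in Sirt1cKO were 210 genes (1.78% of those measured), and at least 2-fold higher were 84 (0.714%). With folds against background taken as lower bounds, 187 were lower and 81 higher. The median difference was −0.08, with quartiles of −0.31 and 0.13 and the central 95% between −0.91 and 0.69. Below WT by any amount were 60.0% of measured genes, and above WT 40.0%. The balance of lower and higher genes depended on the scaling. After quantile normalization 186 genes were lower and 96 higher, after a lowess fit on brightness 157 and 112, and after median centring 147 and 117. Median centring moved all differences upwards by 0.10, so the list medians below should be read against −0.08. Counts of list members below WT are likewise to be read against 60.0%, and counts past 2-fold against 1.78% lower and 0.714% higher. Listed genes as a whole stood lower than all genes. Over the 1178 measured genes of all lists the median was −0.18, and 31.3% stood above WT. Of them 3.14% were 2-fold lower and 1.27% 2-fold higher. A list median near −0.18 is therefore not particular to its class. At the threshold, the glutathione peroxidase gene Gpx6 (−1.0004) and the calcium channel gene Orai2 (1.001, and −0.16 in its other probe set) lay just inside, and Rps19-ps3 (−0.997) and Rmdn1 (0.9995) just outside.

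**Figure D1:**
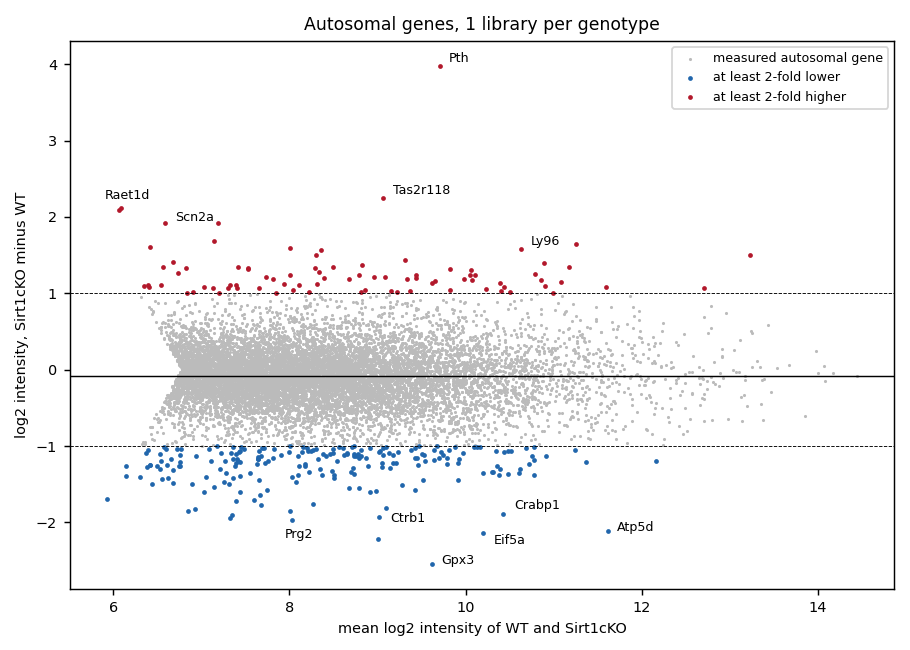
Difference in log2 intensity (Sirt1cKO minus WT) against the mean log2 intensity of the 2 libraries, for 11768 measured autosomal genes. Each point is a gene; dashed lines mark 2-fold, the solid line marks the median of −0.08, and blue and red mark the 210 lower and 84 higher genes. Pth lies apart at 3.98, and lower genes are found at all levels of brightness.

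The largest difference in either direction was that of Pth, which encodes parathyroid hormone. Its log2 intensity was 7.72 in WT and 11.70 in Sirt1cKO, 15.8-fold higher. Parathyroid glands and thymus arise from a common primordium in the embryo, and Pth is transcribed in both tissues. Other genes of the parathyroid lineage differed by less, in both directions. Of 12 such genes on the array 9 were measured, with a median difference of −0.12. Eya1, a transcription regulator of pharyngeal pouch development, stood at 10.10 in WT and 10.99 in Sirt1cKO, and Chga, which encodes the secretory granule protein chromogranin A, at 10.02 and 10.43. The calcium-sensing receptor gene Casr stood at 8.68 and 8.55, the lineage regulator Gata3 at 8.44 and 8.52, and Vdr, the vitamin D receptor gene, at 10.65 and 10.26. Calcr, the calcitonin receptor gene, stood at 7.08 in WT and within background, at 6.07, in Sirt1cKO, at least 1.66-fold lower. Pth stood at 5.39 in the library labelled Aire-/-, so its direction turns if the labels are exchanged, to −2.32. The Pth difference rests on 1 probe set, 1 pool per genotype and the title. In sorted bulk RNA, a different number of cells of a kind and a different amount of RNA per cell cannot be told apart, here and in all that follows.

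Tuft cells are chemosensory epithelial cells that detect ligands through taste receptors, signal through a G protein, phospholipase C and the channel Trpm5, and release lipid mediators and interleukin-25. In the thymic medulla they need the transcription factor Pou2f3, a POU-domain protein. Genes of this programme stood higher in Sirt1cKO nearly throughout. Of 26 tuft cell genes on the array, 25 stood above WT, and of the 24 measured, 2 of them through Sirt1cKO alone, 23 did. The median difference of the measured members was 0.52, against −0.08 over all genes, although no member reached 2-fold. Summed over the list, linear intensity was 10884 in WT and 16244 in Sirt1cKO. The median was 0.58 after quantile normalization and 0.61 after lowess and after median centring. With the labels exchanged it was −0.18, so the direction of the tuft cell genes depends on the title as well.

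Members from every step of the tuft cell pathway stood higher. Pou2f3 itself stood at 9.72 in WT and 10.22 in Sirt1cKO, and Gfi1b, another transcription factor of tuft cells, at 8.79 and 9.37. The G protein genes Gnat3, which encodes gustducin, and Gng13 differed by 0.77 (9.55 and 10.32) and 0.91 (9.29 and 10.20). Gnb3, the beta subunit gene, was nearly level, at 9.23 and 9.27. Below the G protein, the phospholipase C gene Plcb2 stood at 9.62 and 10.30, and Trpm5 at 9.27 and 9.73. The regulator of G protein signalling Rgs13 differed by 0.89, from 9.91 in WT to 10.80, and the kinase-domain gene Dclk1 by 0.68. Among effector genes, Alox5 and Alox5ap, which start leukotriene synthesis, differed by 0.74 and 0.71, and Hpgds, a prostaglandin D synthase gene, by 0.50. Chat, the choline acetyltransferase gene, differed by 0.61 and Il25 by 0.47. The exception was Ltc4s, which encodes leukotriene C4 synthase and is also active in myeloid cells, at 8.12 in WT and 7.45 in Sirt1cKO.

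The taste receptors showed the same direction, but many were dim, so their sizes are not set against those of the tuft cell genes. All 37 bitter, sweet and umami receptor genes on the array stood above WT, with a median difference of 0.68, and 12 of the 37 reached 2-fold higher. Of all autosomal genes, measured or not, 49.9% stood above WT, 0.539% were 2-fold higher and 1.17% were 2-fold lower. Only 12 of the taste receptors were measured, and 6 of these passed through Sirt1cKO alone, so the measured members are not used as a summary. They are not the same 12 as those 2-fold higher. Of the measured members 8 were 2-fold higher, and 7 with folds against background taken as lower bounds. In both libraries 22 of the 37 lay within background. Dim genes as a whole stood slightly higher in Sirt1cKO: 950 of the 1021 olfactory receptor genes stood above WT too, with a median of 0.27, and 9 of them reached 2-fold higher. The counts for taste receptors are to be read beside those values. Among the members measured in both libraries, Tas2r118 stood at 7.94 in WT and 10.19 in Sirt1cKO (2.25, the second largest increase among named genes) and Tas2r108 at 8.36 and 9.57 (1.22). Tas2r117 stood at 7.66 and 8.36, Tas2r138 at 7.48 and 8.17, and Tas2r137 at 7.33 and 8.13, each by less than 2-fold. Others were measured through Sirt1cKO alone. Of these, Tas2r113 stood at 6.75 and 8.09 (1.34), Tas2r115 at 6.30 and 7.99 (1.69), and Tas2r104 at 6.15 and 7.49 (1.34). Tas2r110 was at least 2.58-fold higher, with WT at 5.98. The umami and sweet receptor subunit gene Tas1r3 stood at 7.72 and 8.16. Of the 34 bitter receptor genes, 32 lie on chromosome 6. Over the measured members alone, which are no summary of the family, the median was 1.25, and 1.07 with the labels exchanged. The exchanged median was taken over members that passed the filter in that pair of libraries. It therefore does not show the direction of the whole family, for which no exchanged value was computed. In the library labelled Aire-/- the median difference from WT was 0.79 over the 26 olfactory receptor genes measured in the main comparison. Of these 26, 12 were measured through Sirt1cKO alone and 2 through WT alone.

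**Figure D2:**
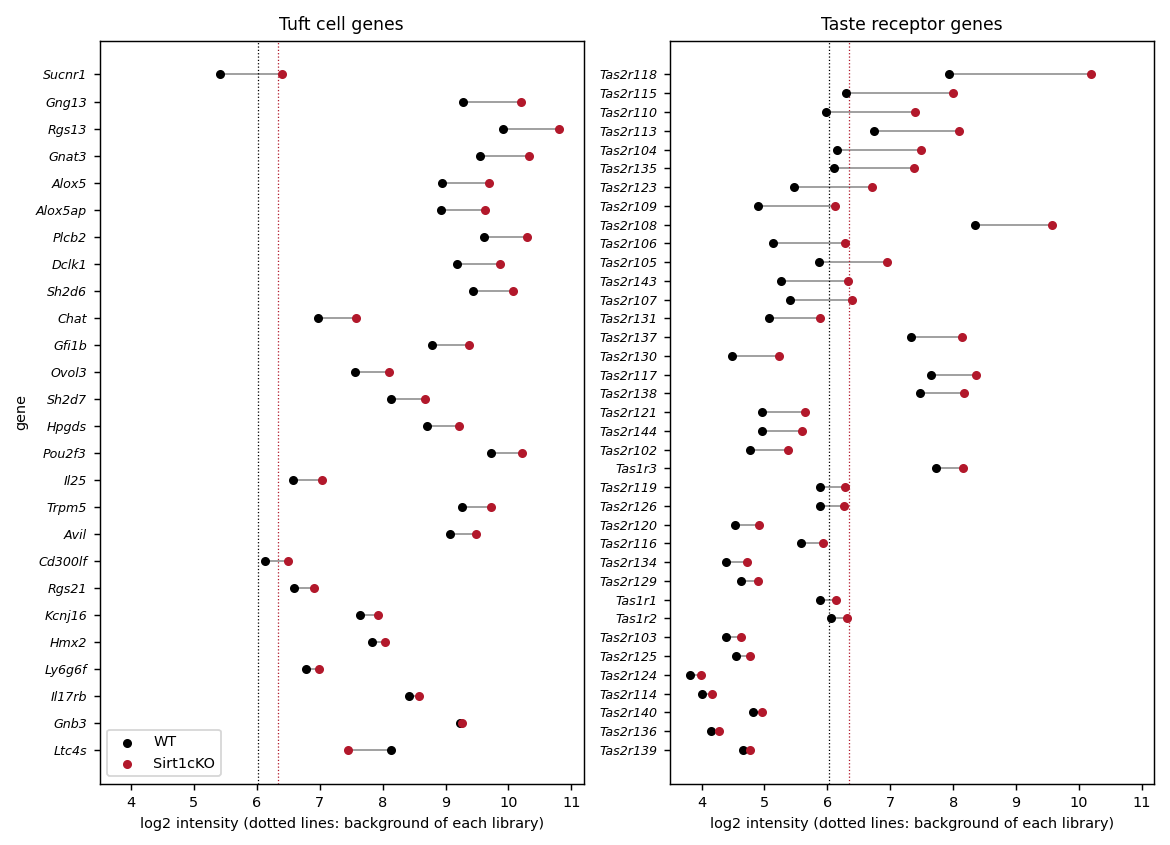
Log2 intensity of every tuft cell gene (left, 26 genes) and taste receptor gene (right, 37 genes) on the array in WT (black) and Sirt1cKO (red), 1 library each, ordered by difference. Dotted lines mark background, 6.02 in WT and 6.34 in Sirt1cKO; all genes but Ltc4s stand higher in Sirt1cKO, and 22 of the taste receptors lie within background in both.

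Promoters of the taste receptor genes were searched for the letters bound by POU-domain factors, the octamer ATGCAAAT, on both strands over 250 bases before the RefSeq start (GRCm38.p6). It was 1 of 10 short motifs counted, and it is shown because Pou2f3 belongs to that family of factors. The octamer was present in 7 of 33 taste receptor promoters (21.2%) and 3 of 22 tuft cell promoters (13.6%). It was present in 1.61% of all 27025 promoters, 1.45% of those of measured genes and 2.44% of 860 olfactory receptor promoters, whose median GC content of 33.6% is near the 36.8% of the taste receptors. A match is a description of letters and not a binding site. Several receptor genes with a match lie close together on chromosome 6, so their promoters need not be independent. The 10 promoters with a match are given as 30-base windows on the gene's strand, 5′ to 3′, with the octamer or its reverse complement in capitals.
Tas2r118, chr6:23970166-23970195, minus strand: gtgtaaggaggATTTGCATccacaaagaag
Tas2r108, chr6:40493435-40493464, plus strand: atccttgaaagATTTGCATctcagtaaaag
Tas2r137, chr6:40491035-40491064, plus strand: cactgggcattATTTGCATctcaacaaaga
Tas2r135, chr6:42405375-42405404, plus strand: gccttggcaatATTTGCATctgttctgaag
Tas2r126, chr6:42434330-42434359, plus strand: gcccgggaaatATTTGCATcatatctgagc
Tas2r144, chr6:42215160-42215189, plus strand: atcctttcataATTTGCATatcaaacctct
Tas2r107, chr6:131660367-131660396, minus strand: ttgattgctaaATGCAAATagttccaaagg
Hpgds, chr6:65144886-65144915, minus strand: ctttactctttATGCAAATacgttggacta
Rgs21, chr1:144567849-144567878, minus strand: catatgaagccATGCAAATacgaccttcag
Sucnr1, chr3:60081810-60081839, plus strand: ggctgcataatATGCAAATcagactgcact
Of the 7 taste receptor matches, 6 read ATTTGCAT along the gene and 1 reads ATGCAAAT, while the 3 tuft cell matches all read ATGCAAAT. The 7 receptor genes with a match had a median difference of 0.99 (range 0.39 to 2.25), and the 26 without one 0.52 (range 0.12 to 1.69), so the ranges overlap. Of the 7, Tas2r126 and Tas2r144 lay within background in both libraries and Tas2r107 in WT. Among tuft cell genes the medians were 0.50 with a match (3 genes) and 0.54 without (19 genes).

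The remaining large increases were of mixed function. Ly96, which encodes the lipopolysaccharide-binding partner of Toll-like receptor 4, stood at 9.84 in WT and 11.42 in Sirt1cKO (1.58). Il10, an anti-inflammatory cytokine gene, stood at 7.54 and 9.05, and Slamf6, a leukocyte surface receptor gene, at 7.82 and 9.16. Ifi205, an interferon-inducible gene, stood at 10.50 and 11.85. Epyc, a cartilage proteoglycan gene, stood at 7.57 and 9.14, Syndig1, a synaptic membrane protein gene, at 7.63 and 8.96, and Wee2, an oocyte kinase gene, at 6.87 and 8.18. Scn2a, a neuronal sodium channel gene, was at least 2.87-fold higher, and of its 14 probe sets the 2 that were measured gave 1.92 and 1.95. Raet1d, a ligand of an activating natural killer receptor, was at least 2.13-fold higher. Stxbp4 differed by 1.91 in its brighter probe set and by 0.17 in the other. Hamp, the gene of the iron hormone hepcidin, was higher too, at 11.05 in WT and 12.14 in Sirt1cKO.

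**Figure D3:**
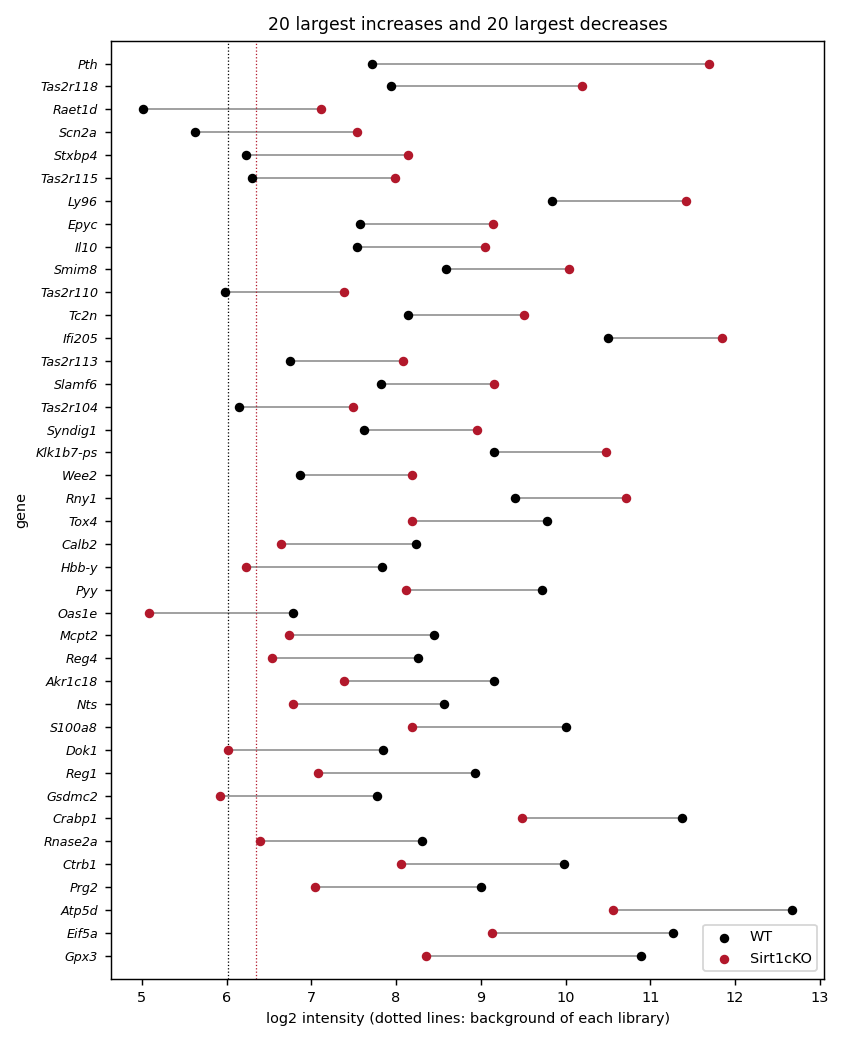
Log2 intensity in WT (black) and Sirt1cKO (red) of the 20 largest increases (top) and 20 largest decreases (bottom) among named autosomal genes. Increases run from 1.31 to 3.98 and decreases from −1.59 to −2.54; 3 of the increases and 4 of the decreases have 1 value within background (dotted lines), so that their fold is a lower bound.

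The largest decrease was that of Gpx3, the gene of the secreted glutathione peroxidase, which reduces peroxides with glutathione. It stood at 10.89 in WT and 8.35 in Sirt1cKO (−2.54). It was joined by other members of its family. Gpx4, which protects membranes from lipid peroxidation, stood at 10.87 and 9.53 (−1.35) in its brighter probe set and differed by −0.48 in the other. Gpx6 stood at 9.97 and 8.97, and Gpx1, the main cytosolic form, at 11.64 and 10.74 (−0.91). Gpx2 differed by −0.23, and Gpx8 stood higher, by 0.43. Among 29 measured genes of glutathione, peroxiredoxin and thioredoxin defence, 3 were 2-fold lower, 0 were 2-fold higher and 23 stood below WT, with a median of −0.23. Nqo1, a quinone reductase gene, differed by −0.94 and Prdx3, the mitochondrial peroxiredoxin gene, by −0.70. Catalase (Cat, −0.13), Sod2 (−0.07) and Txn1 (−0.05) were nearly level.

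Genes of energy metabolism stood below WT as groups, with few members past 2-fold. In glycolysis and glucose uptake, 18 of 19 measured genes stood below WT and the median was −0.46, with 0 genes 2-fold lower. The summed linear intensity was 24483 in WT and 17599 in Sirt1cKO. The lactate dehydrogenase gene Ldha stood at 11.86 and 10.96 (−0.91), the lactate exporter gene Slc16a3 differed by −0.85 and the glucose transporter gene Slc2a1 by −0.46. Slc2a3, another glucose transporter gene, was at least 1.49-fold lower, with Sirt1cKO within background. Hk1, the first enzyme of the pathway, stood at 12.48 and 11.97, a difference of −0.51, and its other probe set gave −0.24. Pgam1, at 10.04 and 10.08, was the 1 member above WT. In the citric acid cycle 14 of 16 genes stood below WT, with a median of −0.37. Citrate synthase (Cs) stood at 11.10 and 10.15 and the isocitrate dehydrogenase subunit gene Idh3b at 10.38 and 9.40. Fatty acid synthesis and oxidation had 18 of 19 genes below WT and a median of −0.28, and cholesterol synthesis 11 of 15 with a median of −0.30.

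The respiratory chain was mixed. Over 77 measured subunits of complexes I to IV and ATP synthase, 3 were 2-fold lower and 1 was 2-fold higher, 49 stood below WT, and the median was −0.20. Above WT stood 36.4% of them, near the 40.0% of all measured genes. The 2-fold lower made up 3.9%, against 1.78% of all, and the 2-fold higher 1.3%, against 0.714%. ATP synthase had the lowest median of these groups, −0.33, and the widest range. Atp5d, the delta subunit gene of its catalytic head, stood at 12.67 in WT and 10.56 in Sirt1cKO (−2.11). The alpha and beta subunit genes Atp5a1 and Atp5b differed by −1.01 and −0.78. At the other end, the membrane subunit genes Atp5l and Atp5k stood higher, by 0.88 and 0.68, with 5 probe sets of Atp5l between 0.38 and 1.40. In complex I (33 genes, median −0.17) Ndufa7 was 2-fold higher, at 9.39 in WT and 10.57 in Sirt1cKO, and Ndufa2 differed by 0.93, while Ndufb9 differed by −0.72. In complexes II and III with cytochrome c (14 genes, median −0.23) Uqcrh differed by −1.07 and Cycs by 0.69. In complex IV (13 genes, median −0.28) Cox7a2 differed by −0.97.

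Protein synthesis and turnover also held single genes with large decreases, within lists whose medians ran from −0.16 to −0.29. Eif5a, the hypusine-bearing translation factor gene, stood at 11.26 in WT and 9.13 in Sirt1cKO (−2.14), although its other probe set gave −0.71. Eif4h, which aids the helicase of initiation, stood at 10.63 and 9.18 (−1.45), and Eef2, the elongation factor gene, at 12.89 and 12.04 (−0.85). Of 44 measured translation factors these first 2 were the ones past 2-fold, and the list median was −0.16. Among 50 measured cytosolic ribosomal protein genes, 3 were 2-fold lower in their brightest probe set: Rps14 (−1.18), Rps12 (−1.13) and Rpl7 (−1.07). Their probe sets disagreed in size and, for Rps12, in direction. The 6 measured for Rps12 ran from −1.13 to 0.14, the 4 for Rpl7 from −1.37 to −0.24, and the other of Rps14 gave −2.09. Rps15 stood higher by 0.74, with its 3 probe sets from 0.13 to 0.74, and the list median was −0.23. The constitutive proteasome had 26 of 31 subunit genes below WT and a median of −0.29, and its beta subunit gene Psmb4 was lower by 2-fold, at 11.27 and 9.97. Endoplasmic reticulum folding genes had 22 of 25 below WT and a median of −0.27. Their main chaperone gene Hspa5 stood at 12.73 and 11.75.

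**Figure D4:**
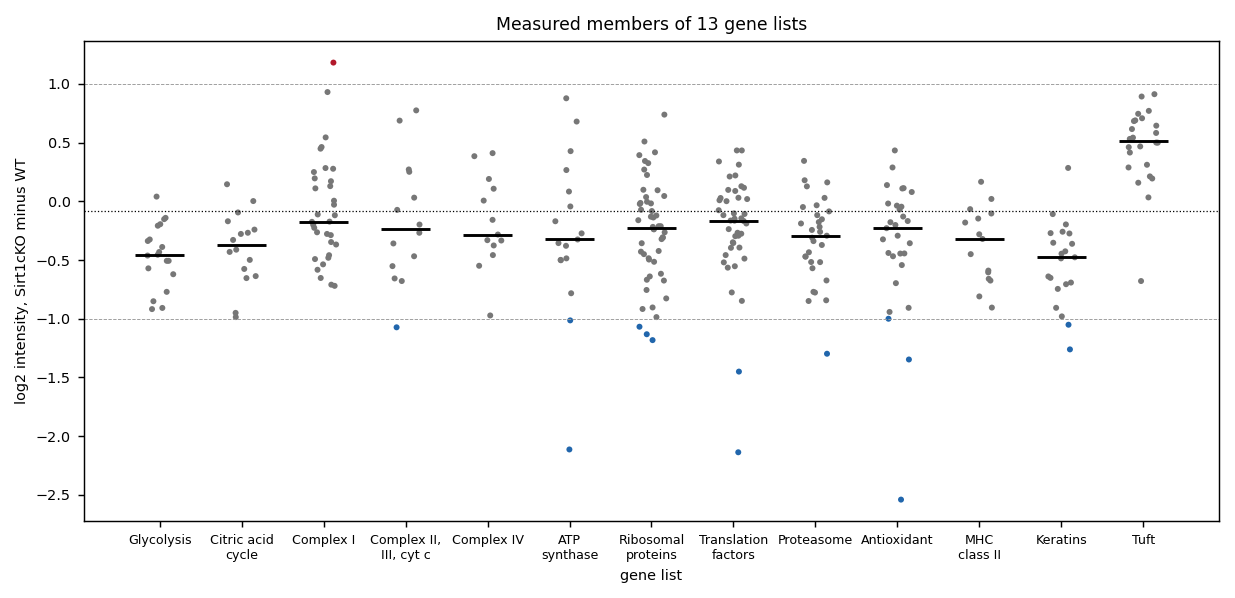
Difference in log2 intensity (Sirt1cKO minus WT) of the measured members of 13 gene lists, with the list median as a bar; each point is a gene, blue points are at least 2-fold lower and red points at least 2-fold higher, sideways spread has no meaning, and the dotted line is the median of all genes, −0.08. Glycolysis genes lie between −0.92 and 0.04 and tuft cell genes between −0.68 and 0.91, while ATP synthase and antioxidant genes hold single members below −2.

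Keratin and mature mTEC genes stood lower as groups, but not all epithelial genes did so to the same extent. Claudin, cadherin, desmosome and connexin genes had 18 of 23 below WT, 0 past 2-fold and a median of −0.12. Cortical and immature thymic epithelial genes stood lower too, with 13 of 15 below WT and a median of −0.26. Of 21 measured keratin genes 20 stood below WT and 2 were 2-fold lower. Their median of −0.48 was the lowest of the 55 functional lists in the deposited values. With folds against background taken as lower bounds it was −0.45, and that of glycolysis −0.46. Krt7, a simple-epithelium keratin gene, stood at 10.98 in WT and 9.72 in Sirt1cKO (−1.26), Krt16 at 8.79 and 7.74 (−1.05) and Krt10 at 10.84 and 9.86 (−0.98). The basal keratin genes Krt5 and Krt14 differed by −0.65 and −0.45, and Krt8 and Krt18, which pair in simple epithelia, by −0.48 and −0.11. Mature mTEC genes had 17 of 20 below WT and a median of −0.41, with Cd40, the receptor through which T cells signal to mTECs, at 11.55 and 10.98. Cd80, the costimulatory ligand gene, stood higher, at 11.82 and 12.18, and Ccl17 at 10.18 and 10.57. Foxn1, the master regulator of the thymic epithelial lineage, stood at 10.47 and 9.99, and the antigen regulator Fezf2 was nearly level, at 11.96 and 11.89. Late epidermal genes split, with 11 of 21 below WT. The protease gene Asprv1 (−1.37) and Calm4 (−1.004) were lower, the protease gene Klk5 was at least 2.05-fold lower, and the cornified envelope gene Sprr2d was higher by 0.88. Their median of −0.03, above that of all genes, turned positive under all 3 scalings, which moved all genes upwards.

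Antigen presentation followed the same direction with smaller sizes. MHC class II presentation had 13 of 15 genes below WT, 0 past 2-fold and a median of −0.32. H2-Aa stood at 13.70 in WT and 13.04 in Sirt1cKO, H2-Eb1 at 13.47 and 12.80, and the invariant chain gene Cd74 was level, at 13.53 and 13.55. The class II regulator Ciita differed by −0.28. In the lysosome, where class II peptides are made, 21 of 24 genes stood below WT, with a median of −0.33. The cathepsin gene Ctsh stood at 11.16 and 9.80 (−1.36), the proton pump subunit gene Atp6v1b2 at 11.19 and 10.17 (−1.02), and Ctsl, Ctsz and Ctss differed by −0.91, −0.82 and −0.81. MHC class I presentation had 12 of 15 genes below WT and a median of −0.31, with the peptide transporter gene Tap1 at 10.12 and 9.31 and B2m level at 13.64 and 13.70.

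Signalling genes showed the same shift. Of 23 TNF superfamily and NF-kB genes, through which mTECs mature, 20 stood below WT, with a median of −0.30. The adhesion gene Icam1 differed by −0.80 and the alternative pathway genes Relb and Nfkb2 by −0.66 and −0.59. Rela, encoding a subunit that Sirt1 deacetylates, stood higher, at 9.99 in WT and 10.25 in Sirt1cKO. Interferon response genes had 26 of 30 below WT and a median of −0.29. Ifi35 was lower by 2-fold (9.34 and 8.29), whereas Cxcl10 stood higher, at 13.01 and 13.49. Of 26 immediate early genes 22 stood below WT and 0 passed 2-fold, with a median of −0.40. Ier2 differed by −0.98 and Dusp1 by −0.91, and Nr4a2 stood higher by 0.80. Chemokine and cytokine genes of thymic stroma had a median of −0.00 over 22 genes, which became 0.09 after lowess.

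Of 14 measured genes of retinoic acid binding, synthesis and breakdown 2 were past 2-fold, and 2 of the 14, Cyp26a1 among them, were measured through WT alone. Crabp1, which encodes a cytosolic retinoic acid binding protein, stood at 11.37 in WT and 9.48 in Sirt1cKO (−1.89). Cyp26a1, the gene of a retinoic acid degrading enzyme, stood at 8.07 and 6.64 (−1.42), and the difference was 0.10 with the labels exchanged. The retinol dehydrogenase gene Rdh10 differed by −0.49 and the retinol transporter gene Stra6 by −0.33. In all, 12 of 14 measured members stood below WT, with a median of −0.34.

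Genes of the NAD and acetylation systems around Sirt1 were close to the median of all genes. Of 23 measured sirtuin and NAD genes, 1 was 2-fold lower and the median was −0.15. That gene, Ido1, degrades tryptophan at the head of the kynurenine route to NAD, and it stood at 7.75 in WT and 6.35 in Sirt1cKO (−1.41). Nampt, the NAD salvage enzyme gene, was nearly level, at 11.22 and 11.07, and Nmrk1, a nicotinamide riboside kinase gene, stood higher, at 8.78 and 9.37. The nuclear sirtuin genes Sirt6 and Sirt7 differed by 0.23 and −0.41. Among 30 measured genes whose proteins Sirt1 deacetylates or binds, 0 passed 2-fold, 15 stood below WT and the median was 0.01. Ep300, an acetyltransferase gene, stood at 9.58 and 10.09, the largest difference on that list. The 21 acetyltransferase and deacetylase genes had a median of 0.03, with Hdac2 lower, at 9.73 and 9.05. Chromatin remodellers and histone methylation genes had a median of 0.05 over 29 genes, with Tet1, a DNA demethylase gene, at 8.85 and 9.71 in its brightest probe set, while its 3 probe sets ran from −0.08 to 0.86. Partners of Aire had a median of −0.10 over 21 genes, and 0.00 after median centring. With the labels exchanged, the median of the sirtuin and NAD genes was 0.01, that of the Sirt1 substrates and partners −0.24, that of the acetyltransferases and deacetylases −0.22 and that of the chromatin genes −0.21.

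Among targets of transcription factors that Sirt1 acts on, p53 targets were likewise near the median of all genes. FOXO targets stood lower, near the −0.18 of all listed genes together. Of 19 p53 target genes 1 was 2-fold lower, Phlda3, which restrains Akt, at 10.06 in WT and 8.95 in Sirt1cKO. Pmaip1 and Gadd45a differed by −0.93 and −0.84, while Ddb2 and Plk2 stood higher by 0.51 and 0.42. The median of −0.07 turned sign under 2 of the scalings. FOXO target genes had 12 of 16 below WT and a median of −0.21, with Txnip at 11.50 and 10.88. Cell cycle genes had a median of −0.11 over 39 genes. The cell cycle inhibitor gene Cdkn1c was lower by 2-fold (9.07 and 8.06), and Nusap1 and Mki67, which are expressed in dividing cells, stood higher, by 0.74 and 0.50. DNA repair genes had a median of −0.07 over 21 genes with 0 past 2-fold, and circadian clock genes one of −0.02 over 16 genes. Both medians turned sign under at least 1 scaling.

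**Figure D5:**
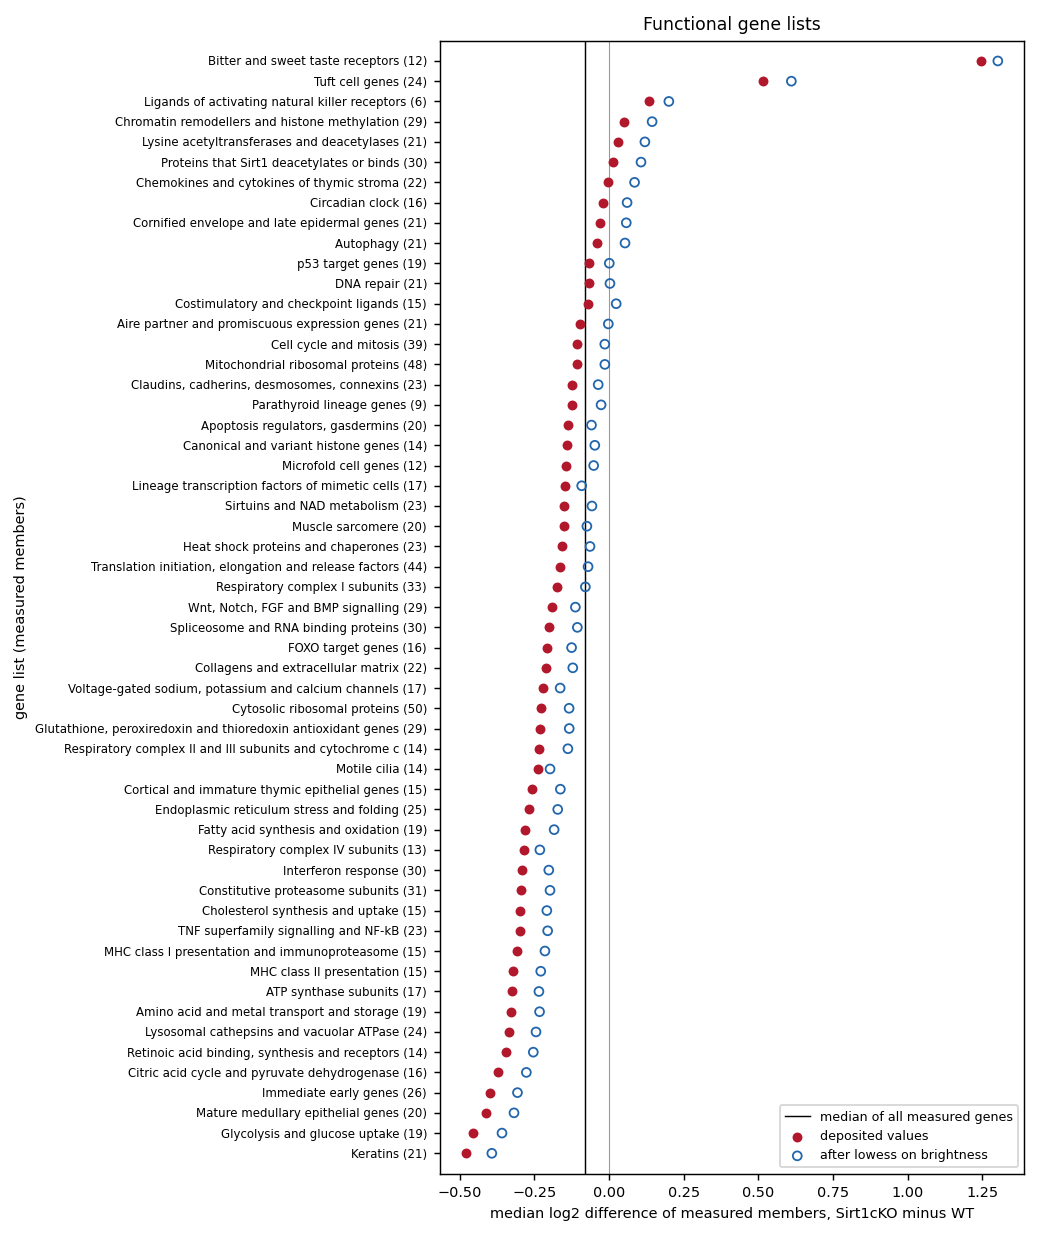
Median difference in log2 intensity (Sirt1cKO minus WT) of the measured members of the functional gene lists, with the number of measured members after each name; red points are deposited values and open blue points are values after lowess, which sets the median of all genes near 0. The black line is the median of all genes in the deposited values, −0.08; tuft cell genes (0.52) lie to the right and keratins (−0.48) and glycolysis (−0.46) to the left. Of the 12 taste receptors shown, 6 were measured through Sirt1cKO alone, so their point is not a summary of the family, whose median over all 37 members was 0.68.

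Several of the large decreases are genes of other cell types or of secretory tissues. Prg2, Rnase2a and Epx, which encode eosinophil granule proteins, stood at 9.01, 8.30 and 7.94 in WT and 7.04, 6.40 and 6.77 in Sirt1cKO. On the whole list of eosinophil and mast cell genes 3 of 8 measured members were 2-fold lower, but Rnase2a and Epx were measured through WT alone. The list median was −0.24, and its summed intensity was 2957 in WT and 2247 in Sirt1cKO. Ccr3, Cpa3, Cma1 and Fcer1a lay within background in both libraries. S100a8, a neutrophil calcium-binding protein gene, stood at 10.01 and 8.19, with Ly6g at 10.97 and 9.62 and Mpo at 8.25 and 7.11. Neutrophil genes had 7 of 9 measured members below WT and 3 of them 2-fold lower, with a median of −0.78, the lowest of all 64 lists, and sums of 10412 and 8934. Without Lcn2, which carried the largest change in intensity, the sums were 6568 and 3752. S100a9 and Lcn2 stood higher, by 0.19 and 0.43, and Csf3r, Cxcr2, Ctsg, Mmp8 and Retnlg lay within background in both. Dendritic cell and macrophage markers had 8 of 14 measured genes below WT, near the 60.0% of all measured genes, and a median of −0.10. Their sums of 8173 in WT and 6520 in Sirt1cKO followed Lyz2, at 12.06 and 11.26, and were 3913 and 4064 without it, while C1qb stood higher by 0.48. Thymocyte markers had a median of 0.28, with sums of 2565 and 2988, 8 of 11 measured genes above WT, and Cd8b1 at 7.82 and 8.65. Cd3d, Ptcra, Rag2, Zap70 and Dntt lay within background in both. B cell markers had 3 of 5 measured genes below WT, the same share as all measured genes, and a median of −0.09. Their sums of 2735 and 2204 followed Fcer2a (−0.79) and were 1452 and 1464 without it, while Ighm and Cr2 stood higher by 0.57 and 0.27. Fibroblast markers had 7 of 8 measured genes below WT and a median of −0.11. Their sums of 2701 and 3329 followed Dcn, at 10.08 and 10.87, and were 1618 and 1456 without it. These sums without 1 gene were computed after the values were seen. Endothelial markers summed to 1194 and 1354 and erythroid markers to 416 and 294. The part of these cells in the differences above was not tested.

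The other leading decreases were of mixed function. The chymotrypsinogen gene Ctrb1 stood at 9.98 in WT and 8.06 in Sirt1cKO, the regenerating-family genes Reg1 and Reg4 at 8.93 and 8.25 in WT and 7.08 and 6.53 in Sirt1cKO. The gut peptide genes Nts and Pyy stood at 8.56 and 9.72 in WT and 6.79 and 8.12 in Sirt1cKO. Gsdmc2, of the pore-forming gasdermin family, was lower by at least 2.70-fold, and Dok1, an adaptor that damps kinase signalling, by at least 2.83-fold. Hbb-y, the embryonic globin gene, was at least 2.81-fold lower. For Oas1e the bound was 1.36-fold, so a 2-fold decrease was not established. Akr1c18, a progesterone-metabolising enzyme gene, differed by −1.77, the protease gene Mcpt2 by −1.71, Calb2, the calretinin gene, by −1.60, and Tox4, a DNA-binding protein gene, by −1.59. The solute carrier family, read by symbol, had 164 of 222 measured members below WT, 7 of them 2-fold lower and 0 higher, with a median of −0.24. With folds against background taken as lower bounds, 5 were 2-fold lower. Of the 222, 22 were measured through WT alone and 2 through Sirt1cKO alone, and over all 354 members the median was −0.11. Zinc finger genes named Zfp had 129 of 211 above WT, 2 of them 2-fold higher, and a median of 0.10.

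The differences were spread over the genome. Chromosome medians ran from −0.13 on chromosome 15 to −0.03 on chromosome 16. The share of genes 2-fold higher was largest on chromosome 6, with 15 of 605 (2.48%), and was 7 of 594 (1.18%) without the bitter receptor genes. Chromosome 18 had 5 lower and 0 higher genes. Lower genes were short more often than long. In the fifth with the shortest gene span 86 of 2353 measured genes (3.65%) were 2-fold lower, and in the fifth with the longest 8 of 2354 (0.34%), while higher genes made up 1.27% and 0.637%. Promoters of lower genes were less often rich in CpG (observed over expected at least 0.6), in 41.2% of 160, against 64.3% of the 9338 measured genes with a promoter sequence. For higher genes the share was 33.3% of 66. The letters TATAAA, on either strand within 250 bases before the start, were present in 20.0% of lower genes, 9.09% of higher genes and 7.39% of measured genes. Base composition, gene length and expression pattern vary together across genes, so these shares are descriptions.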

How the data were processed

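Sorted mature mTECs were measured on Affymetrix Mouse Gene 1-ST arrays, 1 per genotype. The authors deposited linear intensities per probe set. Per the submitters' processing notes RMA was used, and the version of RMA is not given in the sources used here. Log2 was taken here and no further normalization entered the main values. The platform annotation gave 1 symbol for 21640 of 34760 probe sets, several for 1321 and none for 11799. Of the single-symbol sets 99.6% matched RefSeq (GRCm38.p6), which changed 0 symbols. The probe set with the highest mean over both libraries stood for a gene. Called genes differed at least 2-fold.

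The 64 gene lists (55 functional, 9 of cell type markers; 1352 of 1510 written genes on the array) and the comparison itself were chosen with earlier results of these data known. Named genes are Sirt1, Aire and Foxn1, the 20 largest decreases and increases (predicted genes, small RNAs, receptor segments and olfactory genes counted only, 6 lower and 15 higher), list members past 2-fold, whole lists of up to 12 genes, and for longer lists the first 3 and the 4 lowest and highest members. Other members were named after their values were seen, and the octamer was chosen after them too. No test was run, because 1 library per genotype gives no spread; the number of arrays limits the precision. Alternatives were quantile normalization, lowess (span 0.3), median centring, other filters, other probe-set rules, thresholds of 1.5-fold and 3-fold, and labels exchanged. Scripts, tested on simulated data, ran in Python 3.11.15 with pandas 2.3.3, numpy 2.4.6, matplotlib 3.10.9 and statsmodels 0.14.6.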

Additional observations from a re-analysis of the deposited data

Results flagged for a closer look

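Outside the autosomal comparison, 4 Y-linked genes were within background in WT and above it in the library labelled Sirt1cKO, a signal in data the comparison does not use. Eif2s3y stood at 8.92 on the log2 scale in Sirt1cKO and 4.23 in WT. Uty stood at 8.43 and 4.78, Kdm5d at 7.60 and 5.12, and Srsy at 9.10 and 5.95. Xist stood at 12.17 in WT and 11.46 in Sirt1cKO, so the library labelled Sirt1cKO carried both kinds of signal. The labels give no sex of the pooled mice. With X and Y genes counted, 213 genes passed 2-fold on the lower side and 97 on the higher side, against 210 and 84 on autosomes.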

How the results depend on the processing

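No paired analysis was possible because each genotype has 1 library, and leaving out a replicate was not possible for the same reason. The counts of 210 lower and 84 higher genes became 1014 and 455 at 1.5-fold and 23 and 10 at 3-fold. With the labels exchanged they were 1040 and 307, Pth differed by −2.32 instead of 3.98 and Cyp26a1 by 0.10 instead of −1.42. The exchange moved 50 of the 64 list medians by over 0.1 and turned the sign of 9. The keratins went from −0.48 to −1.05, microfold genes from −0.14 to −0.93, cholesterol genes from −0.30 to −0.93, interferon genes from −0.29 to −0.79 and tuft cell genes from 0.52 to −0.18. The other filters, probe-set rules and scalings gave 140 to 223 lower and 58 to 117 higher genes. The 49 of 64 lists with a median below that of all genes ranged from 43 to 53 over the alternatives. The precision of every value is limited by 1 array per genotype, and values near background, 6.02 in WT and 6.34 in Sirt1cKO, are least resolved.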

Other observations

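Probe sets without a gene symbol held more differences than those with 1. Of 4488 measured probe sets with no symbol listed, 177 (3.94%) passed 2-fold on the lower side and 344 (7.66%) on the higher side. Of 760 with several symbols, 27 (3.55%) were lower and 48 (6.32%) higher. Small nucleolar RNA genes, which guide RNA modification in the nucleolus, had 25 of 41 measured members above WT, with 5 at least 2-fold higher and 2 lower. Predicted genes named Gm stood above WT in 80 of 107 measured cases, with a median of 0.18.

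The microfold, motile cilia and muscle sarcomere lists had medians below the −0.08 of all genes, though microfold and sarcomere genes lay near it. Microfold cell genes, which serve antigen uptake in the gut, had a median of −0.14 over 12 measured genes. The microfold regulator gene Spib stood at 11.30 in WT and 10.96 in Sirt1cKO, and the receptor gene Gp2 at 11.40 and 11.48. Motile cilia genes had a median of −0.24 over 14 genes, with the ciliary regulator Foxj1 at 8.04 and 7.51, Tppp3 at 9.57 and 8.55, and Cfap126 higher, at 6.77 and 7.84. Muscle sarcomere genes had a median of −0.15 over 20 genes, with the cardiac actin gene Actc1 at 8.44 and 7.78 and the myosin light chain gene Myl1 at least 2.10-fold higher, at 7.09 in Sirt1cKO with WT within background. The lineage transcription factor gene Ehf, of the epithelial ETS family, stood at 11.07 and 11.89.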
